A study of Mus musculus with 7 samples.

Results

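The transcripts described here encode 9 C-type lectin receptors of myeloid cells: *Clec4n*, *Clec4d*, *Clec4e*, *Clec7a*, *Clec4a1*, *Clec4a2*, *Clec4a3*, *Clec12a* and *Cd72*. They were measured by RNA-seq of mouse aorta in 3 libraries labelled MMP19KO (KO), with the gene of the secreted metalloproteinase MMP19 knocked out, and in 4 libraries labelled Wt (WT). All 9 were found by symbol among the 47729 genes of the table, and all 9 were among the 19188 genes tested. The genes were chosen by their measured difference, because *Clec4n* and *Cd72* were higher in KO, so what follows on KO against WT describes them and is no test. Strain, age, sex, the design of the deleted allele and the part of the aorta are not given in the labels, which also do not say that each library came from its own mouse.

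C-type lectin receptors are surface proteins by which macrophages, dendritic cells and neutrophils recognise sugars and glycolipids of microbes and molecules released from damaged cells. Some activate the cell. Dectin-1 (*Clec7a*) carries its own tyrosine motif, while dectin-2 (*Clec4n*), MCL (*Clec4d*) and Mincle (*Clec4e*) rely on the adaptor chain FcRγ (*Fcer1g*), and both routes lead through the kinase SYK and the scaffold CARD9 to NF-κB and cytokine genes. Others, among them DCIR (*Clec4a2*), MICL (*Clec12a*) and CD72, carry an inhibitory motif that recruits phosphatases such as SHP-1 (*Ptpn6*). In the arterial wall such receptors are known from the macrophages and dendritic cells that live in it or enter it.

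The libraries held 68151472 to 76926790 estimated counts each. *Mmp19* itself was still counted, at 25.5, 11.95 and 15.9 CPM (the count relative to the scaled size of its library) in KO replicates 1, 2 and 3, against 24.8, 24.8, 20.7 and 34.7 CPM in WT replicates 1 to 4. KO replicate 1 lay inside the WT range, and the table sums over exons, so the deleted part cannot be seen and the labels are not checked by this gene. The 3 KO libraries also differed from each other in the smooth muscle markers of the wall. Summed over 12 contractile genes these stood at 4077, 15680 and 8289 CPM in KO replicates 1, 2 and 3, against 20671 to 22925 CPM in WT. All 12 showed a negative log2 fold change (median -1.09), with 0 called by edgeR. At an unadjusted p under 0.05 in edgeR 10 were lower (7.27% of all genes tested), and DESeq2 called 8 lower (3.05% of all genes). *Acta2*, smooth muscle actin, averaged 3640 CPM in KO against 8605 in WT, *Myh11* 1798 and 4916 CPM, *Tagln* 1502 and 2998 CPM, and *Myl9* 679 and 1530 CPM. In RNA of whole tissue, fewer cells of a type and less RNA per cell cannot be told apart.

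Of the 9 genes, 8 lie on chromosome 6 in 2 stretches (GENCODE M21, GRCm38), and *Cd72* lies on chromosome 4 (43446462 to 43454628, minus strand). The first stretch runs over 368 kb, from 122921848 to 123289870, and holds *Clec4a1*, *Clec4a3*, *Clec4a2*, *Clec4n*, *Clec4d* and *Clec4e* in this order. The second runs over 130 kb, from 129342691 to 129472779, with *Clec12a* at one end and *Clec7a* at the other. GENCODE M21 lists *Clec7a* as a polymorphic pseudogene. *Cd72* overlaps *Tesk1*, a kinase gene on the opposite strand, over 1423 of its 3422 exon bases, and without the strand setting the reads of both genes cannot be told apart there. *Tesk1* was at 42.9 ± 2.78 CPM in KO against 51.2 ± 7.44 in WT (SD, n = 3 and 4), so it did not run in the direction of *Cd72*. Stretches of 50 bases shared with transcripts of other genes made up 36.7% of the transcripts of *Cd72* (shared with *Tesk1*), 6.83% of *Clec4a2*, 0.686% of *Clec4n*, 0.457% of *Clec12a*, and none of *Clec4d*, *Clec4e*, *Clec7a*, *Clec4a1* or *Clec4a3*.

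Promoter sequence of RefSeq (GRCm38.p6) was matched for 8 of the 9 genes, *Clec4n* being the exception. The stretches below are the 100 bases before the transcript start, 5′ to 3′ on the gene's strand, and the capitals mark the letters GAGGAA or their reverse complement. GAGGAA is the core of the site of PU.1, the transcription factor (*Spi1*) that myeloid cells depend on. The first 4 genes are shown because they stand for both stretches and for *Cd72* and hold these letters close to the start, and *Clec4a2* because it does not hold them.
Cd72, chr4:43454627-43454726, minus strand: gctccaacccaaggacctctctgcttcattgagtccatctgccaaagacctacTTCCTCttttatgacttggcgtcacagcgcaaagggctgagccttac
Clec4e, chr6:123289872-123289971, minus strand: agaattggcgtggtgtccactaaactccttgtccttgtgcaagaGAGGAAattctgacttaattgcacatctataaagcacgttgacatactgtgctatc
Clec12a, chr6:129350144-129350243, plus strand: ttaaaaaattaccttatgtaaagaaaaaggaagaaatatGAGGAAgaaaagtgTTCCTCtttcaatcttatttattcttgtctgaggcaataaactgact
Clec7a, chr6:129472780-129472879, minus strand: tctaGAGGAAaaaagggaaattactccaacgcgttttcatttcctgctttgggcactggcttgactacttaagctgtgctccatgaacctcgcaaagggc
Clec4a2, chr6:123122590-123122689, plus strand: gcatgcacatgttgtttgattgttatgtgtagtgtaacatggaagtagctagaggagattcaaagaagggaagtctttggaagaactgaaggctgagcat
Counted back from the transcript start, the letters lie at -47 to -42 in *Cd72*, at -56 to -51 in *Clec4e*, at -61 to -56 and -47 to -42 in *Clec12a* and at -96 to -91 from the start shown for *Clec7a*. *Clec4a1* and *Clec4d*, not shown, also lacked the letters in these 100 bases. Their matches lay further out, at -217 to -212 and -187 to -182 in *Clec4a1* and at -240 to -235 in *Clec4d*. *Clec4a3*, not shown, held them at -50 to -45 from only part of its starts. Over the 250 bases before the start and on both strands, 7 of the 8 genes held GAGGAA in at least 1 promoter, against 25.9% of the 27025 genes in the table. By promoter, 8 of 10 held it, against 23.3% of 32851, and the *Clec7a* promoters counted here overlap and hold the same match. In addition, the letters of other motifs were searched in the same way. TTGCNNAA, letters of C/EBP sites, was held by 2 of the 8 genes (*Clec4e* and *Clec12a*) against 10.8% of all genes, and TGANTCA, letters of AP-1 sites, by *Clec12a* alone against 7.82%. None of these matches overlapped a match of another motif, and a match of letters does not show that a factor binds there. *Spi1* was at 68.1, 7.91 and 19.9 CPM in KO replicates 1, 2 and 3, against 4.83 to 6.35 CPM in WT.

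The receptors that couple to FcRγ lay furthest apart between the groups. *Clec4n*, the dectin-2 gene, whose product binds fungal mannans, read 70.1, 2.94 and 14.1 CPM in KO replicates 1, 2 and 3, against 0.752, 0.436, 0.416 and 0.720 CPM in WT replicates 1 to 4. The groups did not overlap: KO replicate 2, the lowest, was at 3.91 times the highest WT value and KO replicate 1 at 93.1 times. The log2 fold change was 5.64 (SE 1.00).

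*Clec4d* encodes MCL, a receptor for mycobacterial glycolipid that forms pairs with Mincle. Its values were 40.7, 1.23 and 10.8 CPM in KO replicates 1, 2 and 3, against 0.188, 0.408, 0 and 0.339 CPM in WT replicates 1 to 4, a log2 fold change of 6.21 (SE 1.38). In WT this was at most 29 counts a library, and the 0 in WT replicate 3 allows up to 0.0430 CPM (3 counts, counting error only). *Clec4e*, the Mincle gene, whose product recognises the same glycolipid and a nuclear protein released by dying cells, read 16.5, 0.643 and 6.45 CPM in KO, against 0.376, 0.310, 0 and 0.177 CPM in WT (log2 fold change 5.18, SE 1.31). Both genes were close to the limit of counting in WT, and KO replicate 2 stood at 3.01 times the highest WT library for *Clec4d* and at 1.71 times for *Clec4e*.

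*Clec7a*, which encodes the β-glucan receptor dectin-1, read 36.7, 3.68 and 17.2 CPM in KO replicates 1, 2 and 3, against 0.987, 2.32, 2.24 and 2.17 CPM in WT replicates 1 to 4 (log2 fold change 3.31, SE 0.70). The groups did not overlap, and WT replicate 1 was low among the WT libraries.

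**Figure D1:**
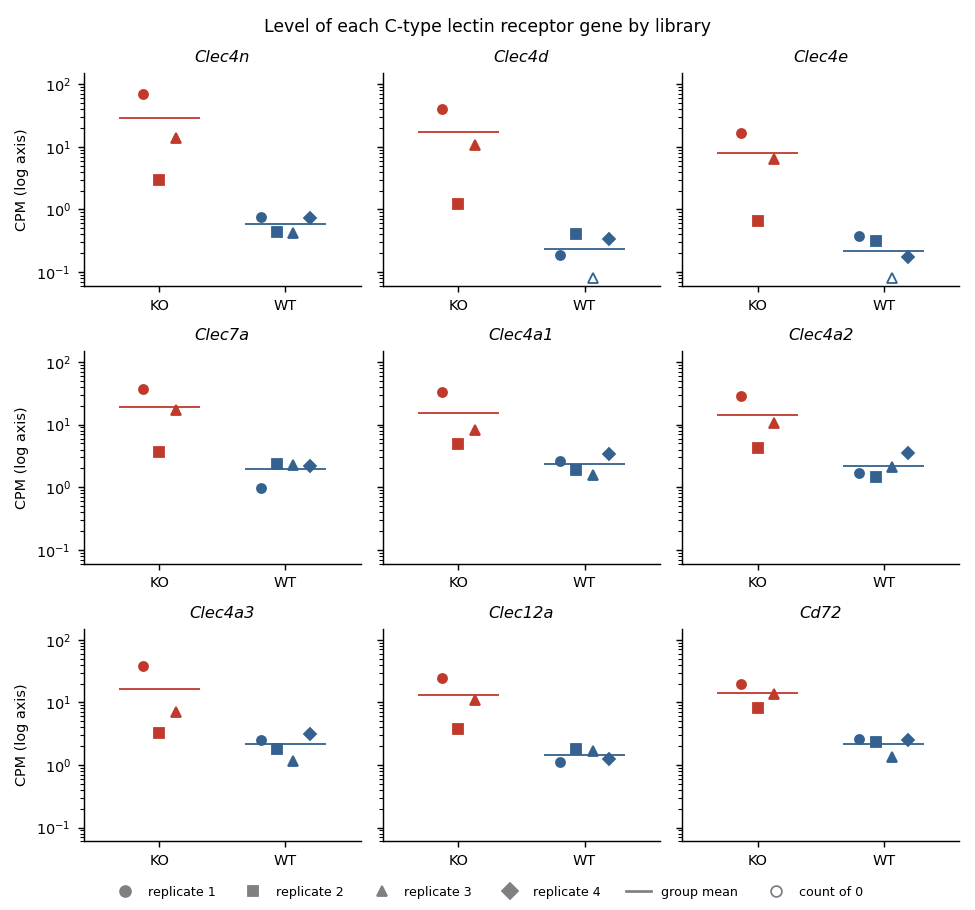
CPM of each receptor gene by library on a log axis, KO left and WT right in each panel, with 1 point per library and a line at the group mean; open symbols mark a count of 0. In every panel the KO libraries run in the order replicate 1, replicate 3, replicate 2 and all lie above the 4 WT libraries, *Clec4n* from 2.94 to 70.1 CPM in KO.

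The DCIR genes had smaller differences. *Clec4a2*, the gene of the inhibitory receptor DCIR, read 28.3, 4.24 and 10.4 CPM in KO replicates 1, 2 and 3, against 1.66, 1.45, 2.14 and 3.58 CPM in WT replicates 1 to 4 (log2 fold change 2.70, SE 0.63). *Clec4a1* and *Clec4a3*, the genes of DCIR4 and DCIR3, relatives without the inhibitory motif, had log2 fold changes of 2.72 (SE 0.66) and 2.92 (SE 0.81). *Clec4a1* was at 33.5, 4.90 and 8.11 CPM in KO and at 1.55 to 3.37 CPM in WT. *Clec4a3* was at 38.8, 3.28 and 7.03 CPM in KO and at 1.18 to 3.14 CPM in WT. For these genes KO replicate 2 lay only just outside WT, at 1.18, 1.45 and 1.05 times the highest WT library for *Clec4a2*, *Clec4a1* and *Clec4a3*. Without KO replicate 1 the log2 fold changes were 1.46 for *Clec4a1*, 1.73 for *Clec4a2* and 1.25 for *Clec4a3*.

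*Clec12a* encodes MICL, an inhibitory receptor that in mouse recognises crystals of uric acid. It read 25.0, 3.76 and 11.0 CPM in KO replicates 1, 2 and 3, against 1.11, 1.79, 1.69 and 1.24 CPM in WT replicates 1 to 4 (log2 fold change 3.18, SE 0.58). *Cd72*, an inhibitory coreceptor best known from B cells and also made by macrophages, read 19.7, 8.15 and 13.8 CPM in KO, against 2.59, 2.31, 1.36 and 2.51 CPM in WT (log2 fold change 2.66, SE 0.36). Its KO libraries were the most alike, KO replicate 1 standing at 2.42 times KO replicate 2, where this ratio was 6.65 for *Clec12a*, 23.8 for *Clec4n* and 33.1 for *Clec4d*. *Cd72* also had the smallest log2 fold change of the 9 genes, with a standard error of 0.36 that was the smallest as well. KO replicate 2 stood at 3.15 times the highest WT library for *Cd72* and at 2.10 times for *Clec12a*.

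The log2 fold change was above 0 for all 9 genes and its median was 3.18, where 46.9% of the genes tested were positive and the median over all of them was -0.03. The lowest KO library was above the highest WT library for 9 of the 9, as for 8.17% of all genes tested. EdgeR's quasi-likelihood test adjusted over all genes called 0 of the 9 (0.0156% of all genes higher), its unadjusted p was under 0.05 for all 9 (9.92% of all genes higher), and DESeq2 called all 9 (5.32% of all genes higher). These counts follow from how the genes were chosen. Without KO replicate 1 the median was 2.33, with 3.87 for *Clec4n*, 4.67 for *Clec4d*, 4.03 for *Clec4e*, 2.43 for *Clec7a*, 2.33 for *Clec12a* and 2.32 for *Cd72*. Over the 36 pairs of genes, Pearson's r of log2 CPM across the 7 libraries ran from 0.845 (*Clec4e* with *Clec4a2*) to 0.991 (*Clec4a1* with *Clec4a3*). These values describe libraries that also differ by group.

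**Figure D2:**
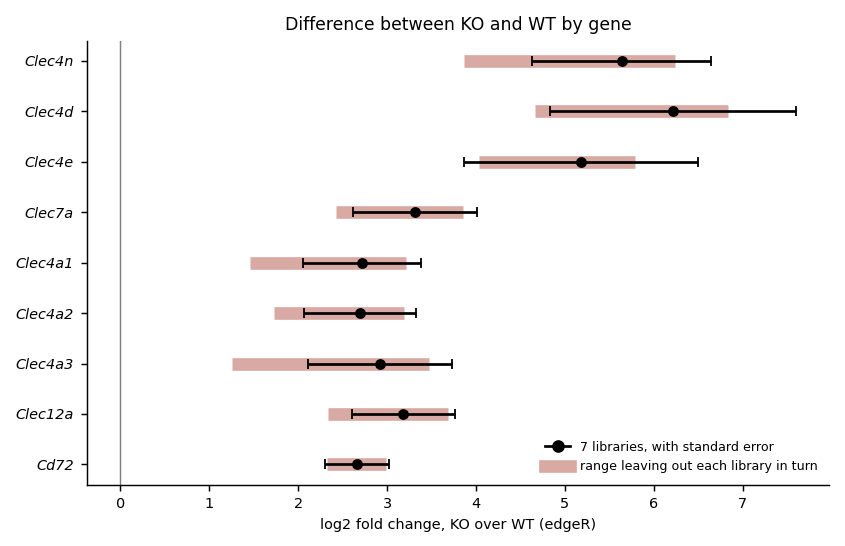
Log2 fold change of KO over WT for each receptor gene with its standard error, over a band that spans the values when each of the 7 libraries is left out in turn. *Clec4d*, *Clec4n* and *Clec4e* have the highest values (6.21, 5.64 and 5.18), the other genes lie between 2.66 and 3.31, and the lowest end of any band is 1.25, for *Clec4a3*.

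Levels of different genes were set side by side as CPM per kilobase of exon. In KO the order of the means was *Clec4n* (20.4 ± 25.3), *Clec4a3* (12.3 ± 14.7), *Clec4d* (11.0 ± 12.9), *Clec4a1* (9.96 ± 10.1), *Clec7a* (7.29 ± 6.30), *Clec4a2* (4.89 ± 4.26), *Cd72* (4.06 ± 1.69), *Clec12a* (2.40 ± 1.95) and *Clec4e* (1.58 ± 1.61 CPM per kilobase; SD, n = 3). In WT it was *Clec4a3* (1.63 ± 0.638), *Clec4a1* (1.51 ± 0.525), *Clec4a2* (0.755 ± 0.329), *Clec7a* (0.732 ± 0.239), *Cd72* (0.641 ± 0.165), *Clec4n* (0.409 ± 0.126), *Clec12a* (0.264 ± 0.0602), *Clec4d* (0.146 ± 0.113) and *Clec4e* (0.0434 ± 0.0334 CPM per kilobase; SD, n = 4). Neighbours in the WT order overlapped in every case, while the ends of it, *Clec4a3* and *Clec4e*, were far apart. *Clec4n* thus stood first in the KO means and in the sixth place in WT. Among the single KO libraries it was first in replicates 1 and 3, at 49.3 and 9.91 CPM per kilobase, but in replicate 2, at 2.07, it came after *Clec4a1*, *Clec4a3* and *Cd72* (3.14, 2.47 and 2.38).

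Genes between the receptors on the chromosome had smaller differences or were too low to test. In the *Clec4* stretch 7 other genes have a row in the table, among them *Clec4a4* and *Clec4b2*, and 1 passed the filter on low counts. This was *Clec4b1*, at 0.787 ± 0.147 CPM in KO against 0.269 ± 0.172 in WT (log2 fold change 1.54, SE 0.53, edgeR adjusted p = 0.221). Between *Clec12a* and *Clec7a* lie 5 others, all tested, with log2 fold changes from -0.09 to 1.44. *Clec1a*, a lectin gene of endothelium, was at 12.2 ± 1.67 CPM in KO against 11.6 ± 1.61 in WT. *Clec9a*, the dendritic cell receptor DNGR-1 for actin exposed by dead cells, was at 4.80 ± 1.05 CPM in KO against 3.19 ± 0.381 in WT (edgeR adjusted p = 0.268; SD, n = 3 and 4).

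**Figure D3:**
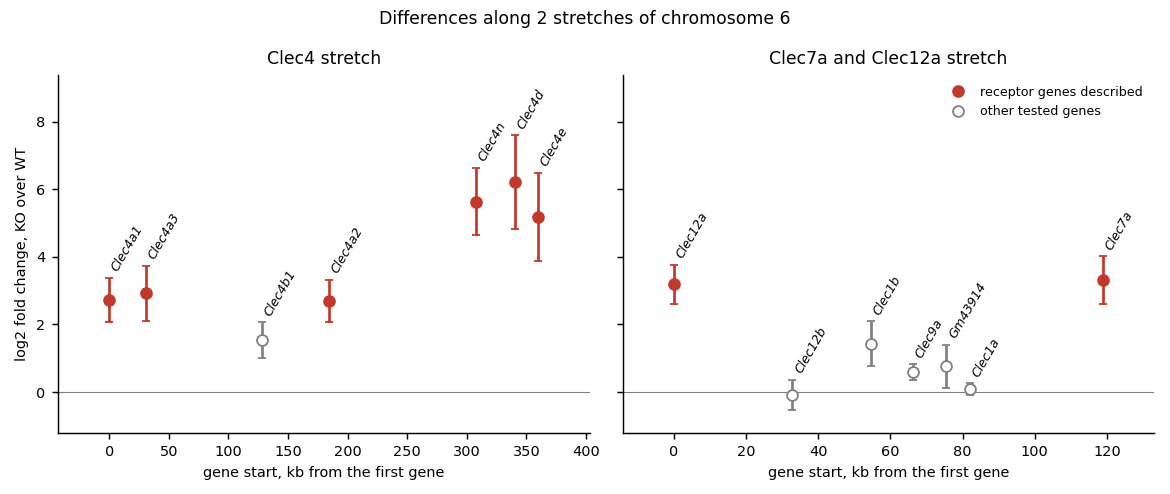
Log2 fold change of KO over WT, with its standard error, of the tested genes in both stretches of chromosome 6, against the distance of the gene's start from the first gene of the stretch in kilobases. Filled points are the receptors described and open points the other tested genes; *Clec12b*, *Clec1b*, *Clec9a*, *Gm43914* and *Clec1a* lie at 1.44 or less between *Clec12a* and *Clec7a*.

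Macrophage markers were higher in the same libraries. All 24 genes of a macrophage and monocyte list were positive in log2 fold change (median 2.41), and their summed level was 6075, 1072 and 1877 CPM in KO replicates 1, 2 and 3, against 515 to 818 CPM in WT. EdgeR called 0 of the 24 (21 higher at an unadjusted p under 0.05, as for 9.92% of all genes) and DESeq2 called 19, all higher (5.32% of all genes). None of the markers was at 0 in any library. The median was 1.41 without KO replicate 1. Lysozyme (*Lyz2*) had a mean of 874 CPM in KO against 142 in WT, *Mpeg1*, perforin 2, 278 and 12.9 CPM, and *Csf1r* 204 and 67.1 CPM. *F13a1*, a coagulation factor of resident macrophages, read 366, 105 and 118 CPM in KO replicates 1, 2 and 3, against 76.7 to 114 CPM in WT, with KO replicate 2 within the values of WT. The part of these cells in the difference of the receptors was not tested. Relative to the summed level of this list the receptors were higher in KO, which follows in part from how they were chosen. The ratio also depends on the markers taken, whose log2 fold changes ran from 0.45 for *Lyve1* to 4.44 for *Mpeg1*. The 9 genes together stood at 5.09, 3.06 and 5.27 CPM per 100 CPM of the macrophage list in KO replicates 1, 2 and 3, against 1.85, 1.93, 2.05 and 2.11 in WT replicates 1 to 4.

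Relative to *Csf1r*, *Adgre1* and *Cd68* alone, which encode a growth factor receptor, the antigen F4/80 and a lysosomal protein of macrophages, the single receptors differed. Per 100 CPM of these 3 genes, *Clec4n* stood at 9.89, 2.34 and 7.36 CPM in KO replicates 1, 2 and 3 and at 0.546 to 0.729 in WT. The mean of this ratio in KO was 10.3 times that in WT for *Clec4n*, 16.2 times for *Clec4d* and 9.01 times for *Clec4e*. It was 2.52 times for *Clec7a*, 2.38 for *Clec12a*, 2.27 for *Cd72*, 1.74 for *Clec4a2*, 1.68 for *Clec4a3* and 1.67 for *Clec4a1*. For *Clec4d* and *Clec4e* the WT mean includes WT replicate 3 at 0. In KO replicate 2 their ratios were 0.976 and 0.510, against at most 0.511 and 0.388 in WT. The groups overlapped in this ratio for *Clec7a*, *Clec4a2*, *Clec4a3* and *Cd72*. For *Cd72* it was KO replicate 1, at 2.79, that lay within the WT range of 1.92 to 2.89, while KO replicates 2 and 3 were at 6.48 and 7.23.

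**Figure D4:**
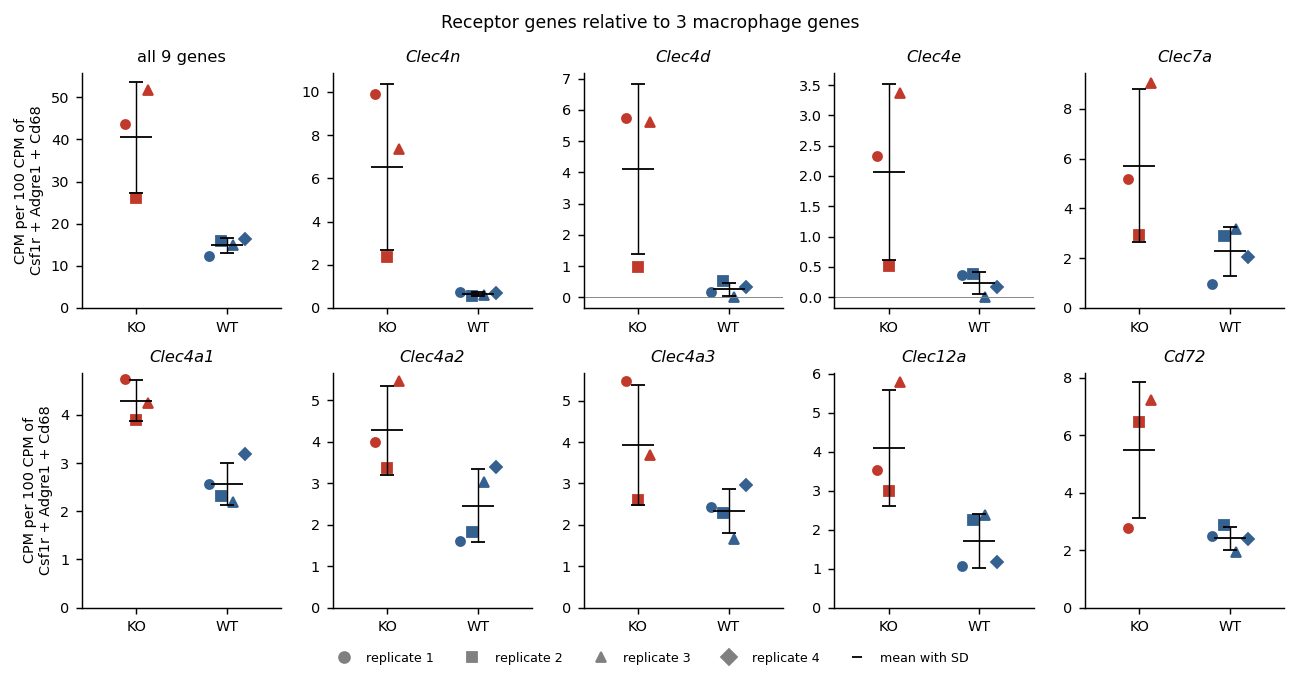
CPM of the 9 receptor genes together and of each one per 100 CPM of *Csf1r*, *Adgre1* and *Cd68*, by library, KO left and WT right, with the mean and SD of each group. The 9 genes together lie between 26.1 and 51.8 in KO and between 12.4 and 16.3 in WT. The mean in KO is 10.3, 16.2 and 9.01 times that in WT for *Clec4n*, *Clec4d* and *Clec4e*. KO replicate 2 lies nearer to WT for *Clec4d* and *Clec4e*, at 0.976 and 0.510 against at most 0.511 and 0.388 in WT.

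Other cells that carry some of these receptors were read from their own markers. Neutrophil markers summed to 541, 21.1 and 91.6 CPM in KO replicates 1, 2 and 3, against 13.04 to 31.8 CPM in WT, which places KO replicate 2 within the range of WT. The single markers differed there, and 3 of the 13 tested had every KO library above every WT library (8.17% of all genes). In KO replicate 2 these were *Csf3r* at 3.87 CPM against at most 2.38 CPM in WT, *Retnlg* at 0.714 against at most 0.376 CPM, and *Trem1* at 0.343 CPM against 0 in every WT library. Of 14 neutrophil markers 13 were tested and 9 were positive (median log2 fold change 3.31, 1.40 without KO replicate 1). EdgeR called 0, with 8 higher at an unadjusted p under 0.05 (9.92% of all genes), and DESeq2 called 7 higher (5.32% of all genes). *Csf3r*, the receptor of a neutrophil growth factor, averaged 66.9 CPM in KO against 1.77 in WT, *Lcn2* 24.3 and 2.20 CPM, and *S100a9* 20.4 and 2.06 CPM. *Mmp9* read 146, 4.13 and 7.08 CPM in KO replicates 1, 2 and 3, against 4.42 to 7.87 CPM in WT, so that only KO replicate 1 lay above WT. For *Lcn2* and *S100a9* KO replicate 2 lay inside the WT range. *Cxcr2*, a chemokine receptor, read 50.4, 0.286 and 11.1 CPM in KO and 0.0717 to 0.338 CPM in WT. *Mpo*, a granule gene of immature neutrophils, averaged 0.101 CPM in KO against 0.534 in WT. Dendritic cell markers had a median of 2.25 over 11 genes, 10 of them positive, and this median was 1.33 without KO replicate 1. Of these markers edgeR called 0, with 8 higher at an unadjusted p under 0.05 (9.92% of all genes). DESeq2 called 5 of them higher (5.32% of all genes). *Itgax*, the integrin CD11c, averaged 16.05 CPM in KO against 1.69 in WT, *Ciita* 13.5 and 2.84 CPM, *Cd209a* 9.31 and 1.32 CPM, and the transcription factor *Zbtb46* 24.0 and 28.9 CPM. The part of these cells in the result was not tested.

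B cell markers were read because *Cd72* is best known from B cells. The median log2 fold change of the 12 genes was 0.48 (-0.11 without KO replicate 1), with 0 calls by edgeR or DESeq2. At an unadjusted p under 0.05 in edgeR 1 was higher (9.92% of all genes). The 12 genes summed to 101, 94.6 and 99.4 CPM in KO replicates 1, 2 and 3 and to 96.2 to 124 CPM in WT. Most of this sum was *Ebf1*, at 64.7 CPM in KO against 81.8 in WT, a gene that fat and stromal cells also express. *Ighm* averaged 22.1 CPM in KO against 16.7 in WT, *Cd22* 2.77 and 0.711 CPM, and *Cd79a* 1.52 and 1.03 CPM. Of the 12 genes 9 were positive and 3 negative in log2 fold change, and for 2 the groups did not overlap, KO being above (8.17% of all genes). *Blk*, a kinase of B cells, was 1 of these, at 0.796 ± 0.179 CPM in KO, against 0.309 ± 0.207 CPM in WT, and *Cd79b* averaged 1.81 CPM in KO against 0.661 in WT, with overlap. *Ms4a1*, the gene of CD20 and 1 of the 3 negative genes, was at 0.544 ± 0.156 CPM in KO, against 0.607 ± 0.306 CPM in WT (SD, n = 3 and 4). T and NK cell markers had a median of -0.28 over 11 genes with 0 calls by either tool. At an unadjusted p under 0.05 in edgeR 1 of these markers was higher (9.92% of all genes). Their sum was 14.4 to 165 CPM in WT, the highest value being that of WT replicate 2, and the median was 1.07 without that library. *Cd8a* averaged 9.38 CPM in KO against 17.2 in WT, *Lck* 9.07 and 11.0 CPM, *Trbc2* 6.82 and 9.89 CPM, and *Cd4* 5.28 and 8.57 CPM.

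Transcripts of the proteins that carry the receptors' signals were read next. Of the genes of 20 adaptors, kinases and phosphatases 17 were positive in log2 fold change (median 2.06, and 0.97 without KO replicate 1). EdgeR called 0 of them and DESeq2 called 13, all higher, with 5.32% of all genes called higher and 3.05% lower. At an unadjusted p under 0.05 in edgeR 15 were higher and 0 lower, where 7.27% of all genes were lower, and every KO library lay below every WT library for 1 of the 20, as for 8.56% of all genes. *Fcer1g*, the FcRγ chain, read 78.0, 9.14 and 23.2 CPM in KO replicates 1, 2 and 3, against 4.03 to 7.30 CPM in WT (log2 fold change 2.77, SE 0.65, edgeR adjusted p = 0.170). *Syk* averaged 72.6 CPM in KO against 16.5 in WT (log2 fold change 2.14, SE 0.61, edgeR adjusted p = 0.186). *Card9* read 20.6, 3.67 and 4.38 CPM in KO, against 0.875 to 2.59 CPM in WT. Its partners differed, *Bcl10* being at 31.1 ± 6.95 CPM in KO against 19.1 ± 1.74 in WT, and the protease *Malt1* at 22.6 ± 0.452 and 28.7 ± 6.09 CPM (log2 fold change -0.34, edgeR adjusted p = 0.367; SD, n = 3 and 4).

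The phosphatase genes of this list differed from each other. *Ptpn6*, which encodes SHP-1 of blood cells, read 98.0, 10.3 and 22.0 CPM in KO replicates 1, 2 and 3, against 3.47 to 8.97 CPM in WT. *Inpp5d*, the SHIP-1 gene, read 127, 22.3 and 34.3 CPM in KO, against 8.25 to 14.6 CPM in WT. For both, as for *Fcer1g*, *Syk* and *Card9*, all KO libraries lay above all WT libraries. *Ptpn11*, the gene of the widely expressed relative SHP-2, was at 186 CPM in KO against 213 in WT (edgeR adjusted p = 0.494), and the adaptor *Grb2* and the kinase *Prkcd* had log2 fold changes of 0.35 and 0.43 (edgeR adjusted p = 0.518 and 0.408).

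The known protein ligands did not pass any test. *Sap130*, the nuclear protein that Mincle recognises, was at 33.6 CPM in KO against 32.2 in WT. *Sema4d*, whose product CD100 binds CD72, read 48.1, 10.9 and 14.7 CPM in KO replicates 1, 2 and 3, against 7.22, 10.7, 18.7 and 8.15 CPM in WT replicates 1 to 4, so that only KO replicate 1 lay above WT (edgeR adjusted p = 0.349).

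Genes that SYK and CARD9 signalling induces were higher in part, and some, *Il1b* and *Il6* among them, did not have the receptors' order among the KO libraries. Of 22 such genes 17 were tested and 16 were positive (median log2 fold change 2.45, and 2.03 without KO replicate 1). EdgeR called 0, with 11 higher at an unadjusted p under 0.05 (9.92% of all genes). DESeq2 called 10, all higher (5.32% of all genes). *Il1b*, interleukin 1β, read 17.1, 1.21 and 28.1 CPM in KO replicates 1, 2 and 3, against 0.125 to 0.434 CPM in WT, and *Il6* read 6.37, 0.214 and 18.2 CPM in KO, against 0.0679 CPM or less in WT. Both were highest in KO replicate 3, as were *Ccl2*, *Ccl4*, *Cxcl1* and *Cxcl2*, where all 9 receptors were highest in replicate 1. *Nlrp3*, an inflammasome sensor, followed the order of the receptors, at 17.0, 1.36 and 4.88 CPM in KO and 0.445 to 0.896 CPM in WT. The same order among the KO libraries held in *Tnf*, *Ccl3*, *Egr2*, *Csf1*, *Nfkbiz* and *Tnfaip3*. Of the 4 most abundant genes of this list 3 passed neither test. *Egr1*, an immediate early gene, averaged 91.5 CPM in KO against 182 in WT, *Csf1* 104 and 85.9 CPM, and *Nfkbia* 50.6 and 45.4 CPM (edgeR adjusted p = 0.343, 0.707 and 0.825), while *Ptgs2*, cyclooxygenase 2, had the order of the receptors, at 109, 14.7 and 37.7 CPM in KO replicates 1, 2 and 3, against 6.97 to 16.9 CPM in WT (log2 fold change 2.42). Its adjusted p was 0.179 in edgeR and 0.00299 in DESeq2, and KO replicate 2 lay inside the WT range.

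Other lectin receptors of leukocytes were mixed. Among 26 listed genes 22 were tested, 17 with a positive log2 fold change (median 1.46, and 0.93 without KO replicate 1), and DESeq2 called 11 higher and 1 lower. EdgeR called 0, with 13 higher and 1 lower at an unadjusted p under 0.05. *Mrc1*, the mannose receptor of resident macrophages, averaged 219 CPM in KO against 65.7 in WT (log2 fold change 1.74, SE 0.49, edgeR adjusted p = 0.185). *Clec2d*, a ligand of NK cell receptors, was even among KO libraries, at 31.0, 34.0 and 34.9 CPM in replicates 1, 2 and 3, against 14.1 to 20.5 CPM in WT (log2 fold change 0.87, SE 0.15, edgeR adjusted p = 0.165). *Cd302* averaged 49.2 and 37.3 CPM in KO and WT, and *Ly75*, the endocytic receptor DEC-205, 13.4 and 25.4 CPM (log2 fold change -0.93 with SE 0.26, edgeR adjusted p = 0.186), the gene that DESeq2 called lower.

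Lectin-domain proteins of endothelium and stroma had no common direction. All 16 were tested, with 7 positive and 9 negative and a median of -0.10, which was 0.05 without WT replicate 1. DESeq2 called 2 higher and 0 lower (5.32% and 3.05% of all genes). EdgeR called 0, with 3 higher and 1 lower at an unadjusted p under 0.05 (9.92% and 7.27% of all genes). *Cd93* averaged 257 CPM in KO against 154 in WT and *Mrc2*, a collagen uptake receptor, 190 and 115 CPM (edgeR adjusted p = 0.190 and 0.268). *Colec12* averaged 124 CPM in KO against 164 in WT, and *Thbd*, thrombomodulin, 135 and 150 CPM (edgeR adjusted p = 0.425 and 0.595). Myeloid transcription factors had a median of 1.04 over 12 genes, 8 of them positive, and 0.66 without KO replicate 1. EdgeR called 0, with 7 higher and 1 lower at an unadjusted p under 0.05 (9.92% and 7.27% of all genes). DESeq2 called 6 of these 12 genes higher and 1 lower (5.32% and 3.05% of all genes). Of the most abundant among them *Bhlhe40* averaged 105 CPM in KO against 57.4 in WT, *Cebpa* 240 and 299 CPM, *Cebpb* 104 and 106 CPM, and *Nr4a1* 38.3 and 93.7 CPM (edgeR adjusted p = 0.166, 0.667, 0.966 and 0.188).

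**Figure D5:**
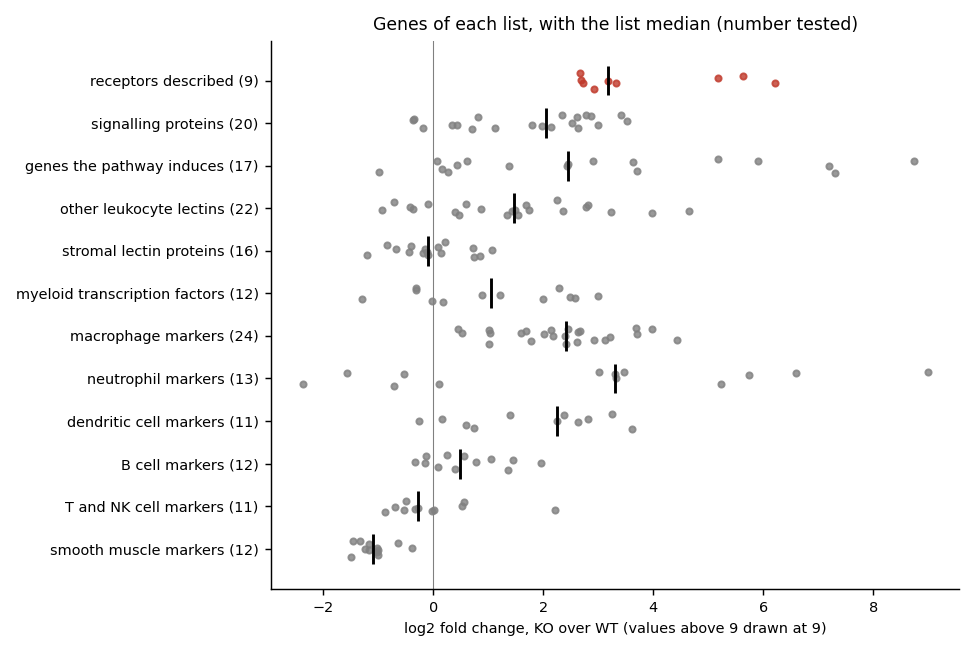
Log2 fold change of KO over WT of each tested gene, by list, with a bar at the list's median and the number of tested genes in parentheses. The receptors described have a median of 3.18 and macrophage markers of 2.41, stromal lectin proteins lie around -0.10 and smooth muscle markers around -1.09; *Trem1*, at 0 in every WT library, is drawn at 9.

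Many genes had a pattern like that of the receptors. Among 13535 other tested genes with a mean of 2 CPM or more, ranked by Pearson's r of log2 CPM with the mean of the 9 standardized genes over the 7 libraries, 390 were above 0.95. The first 10 were *Tnfaip2*, *Cd300c2*, *Slfn9*, *Ccr1*, *Wfdc17*, *Milr1*, *C1qa*, *Rap2c*, *Lair1* and *Cd53*, with r from 0.996 to 0.998. *Ccr1*, a chemokine receptor of myeloid cells, read 110, 6.33 and 26.2 CPM in KO replicates 1, 2 and 3, against 1.03 to 2.70 CPM in WT. *C1qa*, a complement subunit of resident macrophages, read 209, 58.9 and 108 CPM in KO, against 27.2 to 40.5 CPM in WT. *Rap2c*, a small GTPase made by many cells, followed the same order over a narrow range, at 54.7, 40.4 and 45.5 CPM in KO and 32.2 to 34.8 CPM in WT. These libraries share the group difference, so the correlation describes likeness of pattern alone.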

How the data were processed

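Per the labels' protocols, Trizol was used to isolate aortic RNA and a SMARTER kit to prepare the libraries. The authors deposited estimated counts per gene for 7 libraries, as whole numbers without scaling between libraries. Per the submitters' processing notes, the builds were GRCm38 and mm10. The aligner, counting tool and annotation release, and whether strand was used were not given in the sources used here. Low values pile up at multiples of 4, so a count need not stand for 1 read, and intervals and floors cover counting error only. Of 47729 identifiers 47224 matched a symbol, and the 120 that share a symbol stayed out of the lists.

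KO was compared with WT in R 4.3.3 with edgeR 4.0.16 on the counts, with filterByExpr (*Mmp19* and *Acan* kept), TMM, glmQLFit and glmQLFTest, and Benjamini-Hochberg adjustment over 19188 genes at 0.05. SE is that matching the quasi-likelihood F statistic. CPM use the TMM factors, and log2 CPM a prior count of 2. CPM per kilobase divide by the union of GENCODE M21 exons. On simulated counts with the same spread in both groups, edgeR called 28% of genes changed 2-fold, and 90%, 78% and 96% of those changed 4-, 8- and 16-fold. It also called 4 of the unchanged genes. The receptors varied more in KO than in WT, and edgeR called 0 of the 9, so these shares should not be applied to them. Lists are described by counts and medians, without a set test. P-values measure the spread between these libraries, which may be technical.

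Members and lists were chosen with earlier results of these data known. Of each list the 4 most abundant tested genes are named, with the 10 genes most like the receptors. *Klrb1b*, *Olr1*, *Clec5a* and *Klrd1* were named after their log2 fold changes were seen. *Fcer1g*, *Card9*, *Bcl10*, *Malt1*, *Ptpn6*, *Inpp5d*, *Spi1*, *Il1b*, *Il6*, *Nlrp3*, *Ccl2*, *Ccl3*, *Ccl4*, *Cxcl1*, *Cxcl2*, *Tnf*, *Egr2*, *Nfkbiz*, *Tnfaip3*, *Lyve1*, *Trem1*, *Cxcr2*, *Mpo*, *Retnlg*, *Blk*, *Cd79b*, *Ms4a1*, *Tesk1* and the genes between receptors were named after their values were seen. Alternatives were upper-quartile scaling, scaling by DESeq2's size factors, other filters, DESeq2 1.42.0, limma-voom (limma 3.58.1) with quality weights, a block for the replicate number, leaving out each library and, chosen after seeing the data, counts divided by 4.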

Additional observations from a re-analysis of the deposited data

Results flagged for a closer look

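*Clec7a* in WT replicate 1, at 0.987 CPM, lay apart from the other 3 WT libraries at 2.17 to 2.32 CPM. The gap to the nearest was 0.887 of the whole range of the group, above Dixon's critical value of 0.829 for 4 samples.

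T and NK cell markers summed to 165 CPM in WT replicate 2, against 14.4 to 22.3 CPM in the other WT libraries, a gap of 0.948 of the range. The receptors did not stand apart in that library, the 9 genes summing to 12.7 CPM there and to 10.6 to 17.2 CPM in the other WT libraries. In all 23 sets of WT values were examined, and chance gives about 1 such result in 20.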

How the results depend on the processing

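The log2 fold changes of the 9 receptors were positive in all 134 values obtained under the alternatives, from 1.25 to 6.83, and 129 moved by less than 1 SD between replicates. This SD of log2 CPM within the groups was wide, from 0.52 for *Cd72* to 2.14 for *Clec4d*. A fall of *Clec4d* from 6.21 to 4.67 without KO replicate 1 thus stayed below it. The exceptions were *Clec4n* (3.87), *Clec4a1* (1.46) and *Clec4a3* (1.25) without KO replicate 1, and *Clec4a1* (1.69) and *Clec4a3* (1.56) with limma-voom, whose quality weight was lowest for that library (0.256). The stricter filter (50 counts in 3 libraries) left out *Clec4e*. The receptors relative to the macrophage list, a difference of 1.13 in log2 ratio, ran from 0.99 to 1.39 over the libraries left out and was 1.39 against *Csf1r*, *Adgre1* and *Cd68*. The receptors were chosen by their difference, so this ratio describes them and is no test.

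The number of genes called over the whole table, 3 in edgeR, was 0 without a filter, 7 with the stricter filter, 7 with limma-voom, 7 with counts divided by 4, 1606 with DESeq2 and 0 to 1029 when 1 library was left out, the highest being without KO replicate 2. With the replicate number as a block it was 0, and the median of the receptors was 2.74. Deviations of same-numbered libraries correlated at 0.05, 0.07 and 0.34, and only KO replicate 3 correlated best with its own number, so the numbers were not taken to pair the libraries. Of the listed genes other than the receptors, each counted once, edgeR called 0, DESeq2 called 82, and leaving out 1 library gave 0 to 71. The causes were not tested.

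Counts of 0 to 29 in WT limit *Clec4d* and *Clec4e*, whose fold changes rest on few counts.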
